A study of Equus caballus with 6 samples.

Results

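Toll-like receptor endotoxin sensing was examined through 10 genes chosen by their role, namely the receptors TLR2, TLR3, TLR4 and TLR5, the endotoxin-handling proteins CD14, LY96 and LBP, and the signalling proteins MYD88, IRAK1 and TRAF6. A probe set, a group of short oligonucleotides on an Affymetrix array that together give 1 signal, was taken where the platform annotation gave it 1 of these symbols and no other. This gave 14 of the 24016 non-control probe sets, for 9 of the 10 genes. LY96 had no probe set by this rule and was not analysed here. Every probe set was kept apart.

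RNA came from lamellar hoof tissue of horses, the interleaved epidermis and dermis that holds the coffin bone inside the hoof wall. The laminitis group held 3 samples of diseased right-foot tissue (replicates 1, 3 and 4), and the normal group held 3 samples of normal right-foot tissue (replicates 2, 3 and 4), each on its own bovine GeneChip. The sources used here do not give how laminitis arose, the age and breed of the horses, or whether each sample is a separate horse. The p-values therefore cover the spread among these 6 samples alone, and that spread may be technical. The question behind the comparison is how diseased lamellae differ from normal ones in transcript levels.

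Endotoxin, the lipopolysaccharide of the Gram-negative outer membrane, is passed by LBP in plasma to CD14 and then to TLR4 bound to LY96. The receptor recruits MYD88, which assembles IRAK kinases and the ubiquitin ligase TRAF6 and leads to NF-kB and MAP kinase activation, whereas TLR3 signals through TICAM1 without MYD88. Endotoxaemia accompanies many horse diseases that precede laminitis, and lamellae hold keratinocytes, fibroblasts, vessels and leukocytes that can carry these receptors.

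Signals are on the deposited linear scale, whose median per array lay between 86.7 and 96.6. No detection call was used, so a probe set was tested only where it exceeded its own array's median on at least 3 of the 6 arrays. By that filter 8 of the 14 probe sets, for TLR2, TLR3, CD14, IRAK1 and TRAF6, were tested, while TLR4, TLR5, LBP, MYD88 and a further probe set each of TLR3 and CD14 were not. The arrays correlated with each other at a Pearson r between 0.871 and 0.909 over log2 signals of all non-control probe sets. The ratio of the 3′ to the 5′ GAPDH control signal, a sign of RNA integrity, was 9.70, 4.06 and 4.74 in laminitis and 6.87, 5.51 and 6.80 in normal tissue, with overlapping groups. For actin it was 6.62, 4.71 and 4.78 in laminitis and 6.25, 2.08 and 4.24 in normal tissue, also overlapping. Of 13 listed keratinocyte markers 8 were tested, 5 with a positive and 3 with a negative log2 difference, and 0 passed. KRT17, a keratin of epidermal keratinocytes and the brightest of them, read 402, 672 and 829.5 in laminitis and 387, 503 and 329.9 in normal tissue, with overlapping groups. In bulk tissue fewer cells of a type and less RNA per cell cannot be told apart.

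None of the 8 tested probe sets passed the test between laminitis and normal tissue, where the limma adjusted p lay at 0.498 or above. This count of 0 stood beside 0% called among all 12519 tested probe sets. At an unadjusted limma p under 0.05, 1 of the 8 was lower and 0 were higher in laminitis, against 4.97% and 4.82% of all tested probe sets. All 3 laminitis values lay below all 3 normal values for 2 of the 8, a probe set of TLR3 and a probe set of TRAF6, where 8.92% of all tested probe sets did so. The opposite order was seen for 0 of the 8, against 7.89% of all.

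**Figure D1:**
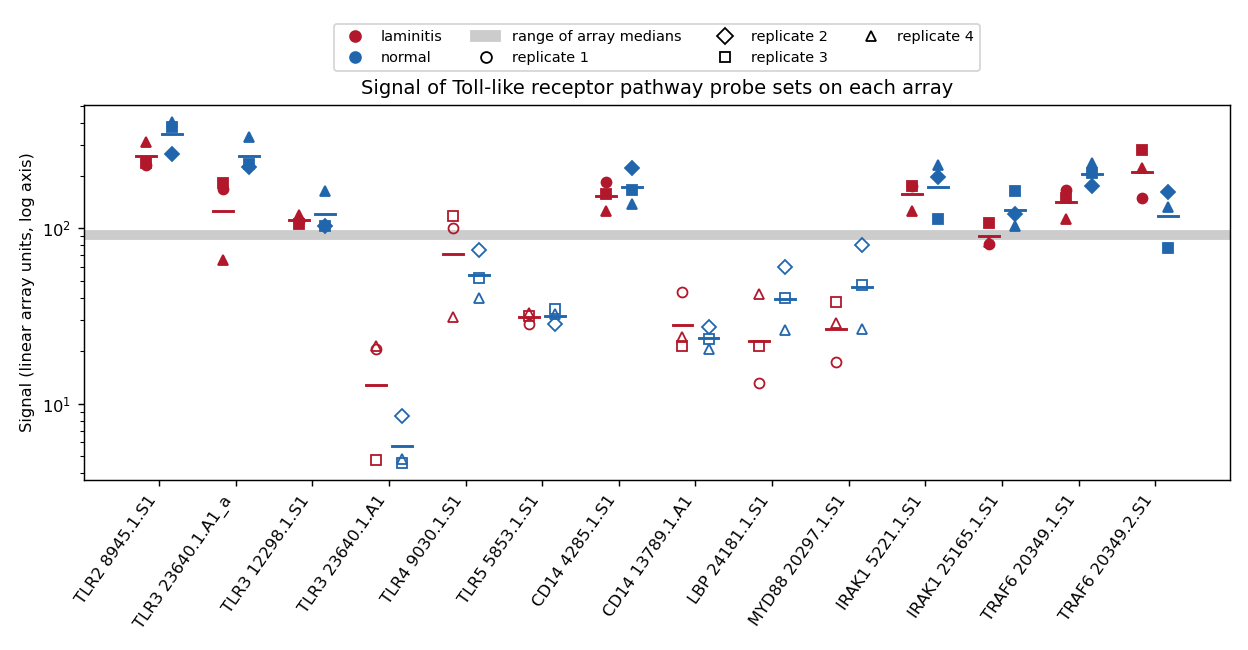
Signal of the 14 probe sets (linear array units, log axis), labelled by gene and probe set number without the common prefix, with laminitis left of normal. Each symbol is 1 array, the horizontal bar is the geometric mean of 3 arrays, filled symbols were tested and open symbols were not, and the grey band spans the array medians of 86.7 to 96.6. The groups are apart for TLR3 23640.1.A1_a and TRAF6 20349.1 and overlap for all other probe sets shown.

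TLR2 recognises bacterial lipoproteins, as a dimer with other Toll-like receptors. Its probe set Bt.8945.1.S1_at read 230.4, 236 and 312 in laminitis replicates 1, 3 and 4 and 264, 377 and 406 in normal replicates 2, 3 and 4. It lay above the array median on all 6 arrays, and the groups overlapped through laminitis replicate 4, which exceeded normal replicate 2. Mean signal was 259.6 ± 45.9 in laminitis and 349 ± 74.97 in normal tissue (SD, n = 3 each). The log2 difference was -0.42 ± 0.25 (SE, limma adjusted p = 0.621), with a 95% interval from -1.001 to 0.17. The laminitis-over-normal ratio of geometric means was 0.749.

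TLR3 senses double-stranded RNA in endosomes. Its brightest probe set, Bt.23640.1.A1_a_at, read 168, 181 and 65.9 in laminitis and 222, 231 and 329.8 in normal tissue. Every laminitis array was below every normal array, with laminitis replicate 4 lowest of all and under its array's median of 93.2. The ratio of geometric means was 0.490, the log2 difference was -1.03 ± 0.42 (SE, n = 3 per group) and its 95% interval ran from -2.01 to -0.05. Its unadjusted limma p, 0.0423, was the lowest of the 8 tested probe sets, and it did not pass the adjustment over all probe sets (0.498). An exact two-sided permutation of the 6 arrays gave p = 0.1, the smallest that 3 against 3 allows. Without laminitis replicate 4 the log2 difference was -0.56.

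The other TLR3 probe sets read differently. Bt.12298.1.S1_at read 110.0, 106 and 119 in laminitis and 103, 103 and 163 in normal tissue, above the array median on all 6 arrays. The laminitis values lay inside the normal range, and the log2 difference was -0.11 ± 0.24 (limma adjusted p = 0.899, 95% interval -0.68 to 0.46). The signal of Bt.23640.1.A1_a_at over that of Bt.12298.1.S1_at was 1.53, 1.71 and 0.554 in laminitis and 2.15, 2.24 and 2.03 in normal tissue. The groups did not overlap in this ratio, whose numerator already separated them (exact two-sided permutation p = 0.1, the smallest possible). Such ratios were compared for 3 pairs of probe sets, of TLR3, IRAK1 and TRAF6, and this p was 0.3 after Benjamini-Hochberg adjustment over the 3. Bt.23640.1.A1_at, annotated to the same sequence record as the brightest probe set, was dim at 20.4, 4.78 and 21.3 in laminitis and 8.47, 4.57 and 4.86 in normal tissue, and it was below the array median on all 6 arrays.

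TLR4 is the signalling receptor for endotoxin. Its probe set Bt.9030.1.S1_at read 99.8, 118 and 31.1 in laminitis replicates 1, 3 and 4 and 75.6, 52.3 and 39.8 in normal replicates 2, 3 and 4. Laminitis replicates 1 and 3 were the highest of the 6 and laminitis replicate 4 the lowest, so the laminitis range enclosed the normal one. TLR4 exceeded the array median on 2 laminitis arrays and on 0 normal arrays, and it was therefore not tested. In the fit with no filter on dim probe sets the log2 difference was 0.41 ± 0.56 (limma adjusted p = 0.878), with a 95% interval from -0.94 to 1.75. The difference was 1.01 without laminitis replicate 4 and 0.045 without laminitis replicate 3, so its size depended on which array was left out.

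Of the neutrophil markers tested, S100A8 and S100A9 were lower on laminitis replicate 4 than on the other laminitis arrays, and ELANE and MPO did not follow that order. S100A8 and S100A9, abundant in neutrophils, read 9810 and 2947 on laminitis replicate 1, 7256 and 2392 on replicate 3 and 779 and 486 on replicate 4. Of 13 listed neutrophil markers 4 were tested, and their summed signal ran from 1495 to 12992 in laminitis and from 503 to 983 in normal tissue. The laminitis sums came mostly from S100A8 and S100A9, so they are not a reading of all 4 markers. S100A9 read 190, 35.0 and 43.0 in normal tissue, so the laminitis group alone carried it past the filter. ELANE and MPO, granule enzymes of neutrophils, had log2 differences of -1.05 ± 0.34 and -0.44 ± 0.21, opposite in sign to S100A8 and S100A9. ELANE read 37.7, 84.2 and 71.1 in laminitis and 152, 125 and 105 in normal tissue, so the normal group alone carried it past the filter. MPO read 198, 153 and 159 in laminitis and 211, 209.5 and 273 in normal tissue, and neither gene was lowest on laminitis replicate 4. The lowest signal per array lay between 0.039 and 0.095, so no probe set read 0 and a reading above 0 does not show that a marker is present. The part of neutrophils in the TLR4 values was not tested.

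TLR5, the receptor for flagellin, was dim and nearly equal on all arrays. Bt.5853.1.S1_at read 28.6, 31.8 and 32.9 in laminitis and 28.4, 34.8 and 32.2 in normal tissue. All 6 values were below their array medians and the laminitis values lay within the normal range. With no filter the log2 difference was -0.03 ± 0.22 (95% interval -0.55 to 0.49, limma adjusted p = 0.981). No detection call was used, and whether TLR5 read above background was not tested.

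CD14, the endotoxin co-receptor of monocytes and macrophages, had a moderate signal that did not separate the groups. Bt.4285.1.S1_at read 184, 156 and 126 in laminitis and 219.7, 166 and 138 in normal tissue, above the array median on all 6 arrays. The groups overlapped widely, with laminitis replicate 1 above normal replicates 3 and 4. Mean signal was 155 ± 29.0 in laminitis and 174 ± 41.6 in normal tissue (SD, n = 3 each), the log2 difference was -0.16 ± 0.26 (SE, limma adjusted p = 0.861), and its 95% interval ran from -0.76 to 0.45. A dim second probe set, Bt.13789.1.A1_at, read 43.5, 21.3 and 24.0 in laminitis and 27.5, 23.3 and 20.4 in normal tissue. Laminitis replicate 1 stood above the other 5 arrays there, and without it the log2 difference was -0.06 in place of 0.25.

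Other monocyte and macrophage markers gave a mixed picture beside CD14. Of 14 listed, 6 were tested and 0 passed over all probe sets. CYBB, the catalytic subunit of the phagocyte oxidase, lay at a log2 difference of 2.20 ± 0.41 (limma adjusted p = 0.222), whereas C1QB, a complement component made by macrophages, had -0.28 ± 0.26 (limma adjusted p = 0.750). The summed signal of the 6 ran from 1028 to 1246 in laminitis and from 827 to 1013 in normal tissue. CYBB, which is part of that sum, read 233, 265 and 256 in laminitis and 37.4, 40.8 and 107 in normal tissue. The laminitis group alone carried CYBB past the filter, and the gap between the summed groups depends on it. The part of macrophage content in the CD14 values was not tested.

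LBP, the plasma protein that delivers endotoxin to CD14, is made mainly by the liver. Bt.24181.1.S1_at read 13.1, 21.2 and 42.0 in laminitis and 59.9, 39.9 and 26.2 in normal tissue. All 6 values were below their array medians, and laminitis replicate 4 lay above normal replicates 3 and 4. With no filter the log2 difference was -0.81 ± 0.51 (SE, limma adjusted p = 0.733), with a 95% interval from -2.04 to 0.43. Without laminitis replicate 4 it was -1.25, and without laminitis replicate 1 it was -0.41.

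MYD88, the adaptor shared by most Toll-like receptors and by interleukin-1 receptors, was also dim. Bt.20297.1.S1_at read 17.2, 38.1 and 28.7 in laminitis and 79.9, 47.6 and 26.5 in normal tissue, each below its array's median. Normal replicate 4 lay below laminitis replicates 3 and 4, so the groups overlapped. The log2 difference with no filter was -0.81 ± 0.49 (SE, limma adjusted p = 0.725), with a 95% interval from -1.99 to 0.38. It was -0.42 without normal replicate 2 and -1.21 without normal replicate 4.

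IRAK1, a kinase that joins the MYD88 complex, was read by a pair of tested probe sets. Bt.5221.1.S1_at read 174, 175 and 125 in laminitis and 195, 113 and 229 in normal tissue, and the laminitis values fell inside the normal range. Its log2 difference was -0.13 ± 0.31 (SE, limma adjusted p = 0.908, 95% interval -0.88 to 0.61). Bt.25165.1.S1_at read 81.9, 108 and 83.0 in laminitis and 121, 163 and 103 in normal tissue. Laminitis replicate 3 exceeded normal replicate 4 and the remaining laminitis values lay below all normal ones. The log2 difference was -0.49 ± 0.24 (SE, limma adjusted p = 0.567), with a 95% interval from -1.07 to 0.09. This probe set exceeded the array median on 1 laminitis array and on all 3 normal arrays, so the normal group alone carried it past the filter. The signal of Bt.25165.1.S1_at over that of Bt.5221.1.S1_at was 0.471, 0.616 and 0.663 in laminitis and 0.621, 1.45 and 0.450 in normal tissue, with overlapping groups (exact two-sided permutation p = 0.8, also 0.8 after adjustment over the 3 pairs).

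TRAF6, the ubiquitin ligase downstream of IRAK1, gave opposite readings from its pair of tested probe sets. Bt.20349.1.S1_at read 165, 149.7 and 113 in laminitis and 175, 208 and 237 in normal tissue. Every laminitis array was below every normal array, by a margin of 165 against 175 at the nearest, and the log2 difference was -0.54 ± 0.23 (SE, limma adjusted p = 0.510, 95% interval -1.08 to 0.00071). The exact two-sided permutation p was 0.1, the smallest possible. After quantile normalization or median centring the groups of this probe set overlapped.

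Bt.20349.2.S1_at read 149.7, 279.7 and 222 in laminitis and 161, 77.3 and 132 in normal tissue. Laminitis replicates 3 and 4 lay above all normal arrays and laminitis replicate 1 below normal replicate 2. The log2 difference was 0.83 ± 0.35 (SE, limma adjusted p = 0.510), with a 95% interval from -0.0026 to 1.67. Without normal replicate 3 it was 0.53. The signal of Bt.20349.2.S1_at over that of Bt.20349.1.S1_at was 0.910, 1.87 and 1.96 in laminitis and 0.916, 0.372 and 0.559 in normal tissue. Laminitis replicate 1 fell just below normal replicate 2 and the other laminitis ratios were above all normal ones (exact two-sided permutation p = 0.2, or 0.3 after adjustment over the 3 pairs). The pair thus pointed in opposite directions for TRAF6, and neither passed the test.

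**Figure D2:**
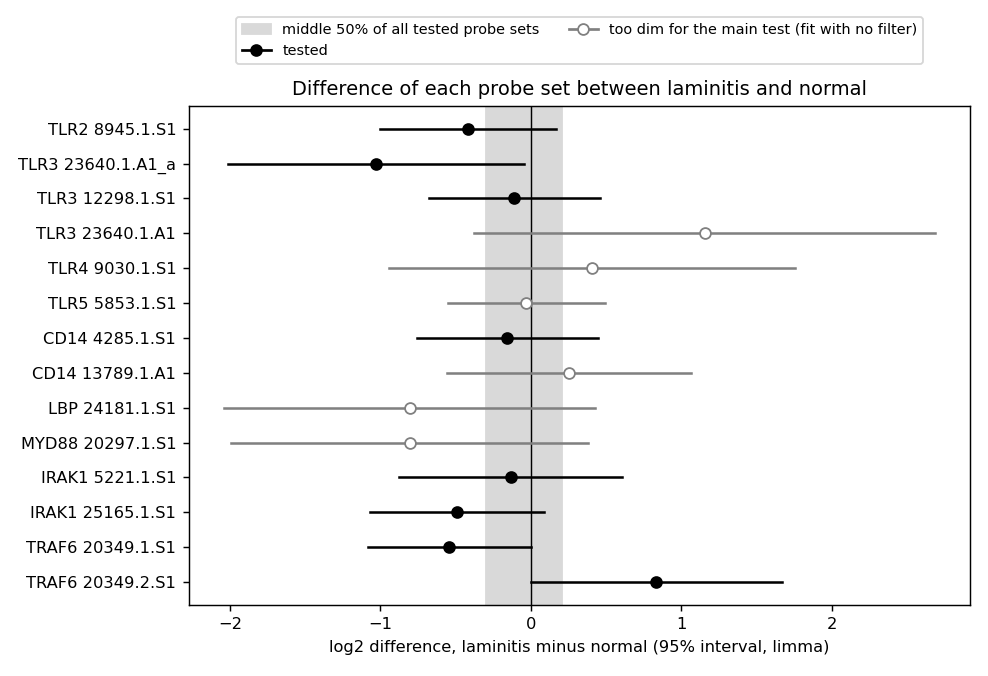
Log2 difference (laminitis minus normal) of each of the 14 probe sets with its 95% interval from limma. Filled black points were tested and open grey points come from the fit with no filter on dim probe sets, and the grey band holds the middle 50% of all 12519 tested probe sets, from -0.30 to 0.20. The interval of TLR3 23640.1.A1_a lies below 0 before adjustment, and the TRAF6 pair points in opposite directions.

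Over all 14 probe sets, 10 had a negative log2 difference and 4 a positive one, with a median of -0.15. Of all 24016 non-control probe sets 56.3% were negative, with a median of -0.066. An absolute change of at least 2-fold was seen for 1 of the 8, the brightest TLR3 probe set, and for 5.04% of all tested probe sets.

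Normal replicate 4 gave the highest of the 6 values for 5 of the 8 tested probe sets, those of TLR2, both of TLR3, Bt.5221.1.S1_at of IRAK1 and Bt.20349.1.S1_at of TRAF6. Laminitis replicate 4 gave the lowest value for 3, of TLR3, CD14 and TRAF6. The median deviation of the 8 from their own mean over the 6 arrays was -0.073, -0.024 and -0.36 on laminitis replicates 1, 3 and 4 and 0.11, 0.16 and 0.46 on normal replicates 2, 3 and 4. Over all tested probe sets the same median stayed between -0.0014 and 0.058 on every array. Among the 8, Bt.25165.1.S1_at of IRAK1, had passed the filter through the normal group alone. Without normal replicate 4 the log2 differences of Bt.12298.1.S1_at of TLR3 and Bt.5221.1.S1_at of IRAK1 turned to 0.11 and 0.075.

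**Figure D3:**
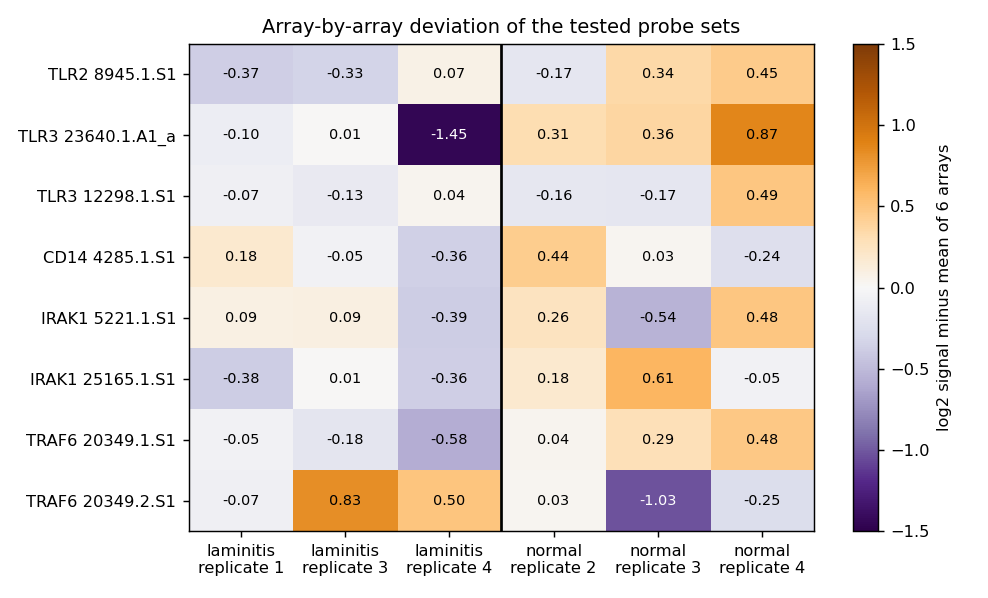
Deviation of log2 signal from the mean of the 6 arrays for each tested probe set (rows) on each array (columns), with laminitis left of normal. Normal replicate 4 holds the highest value in 5 of the 8 rows, and laminitis replicate 4 holds -1.45 for TLR3 23640.1.A1_a.

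On normal replicate 4 the median of fibroblast markers was at its highest and that of keratinocyte markers at its lowest. Fibroblast markers, of which 8 of 8 were tested, had a median deviation of 0.94 on normal replicate 4, against -0.19 and -0.098 on normal replicates 2 and 3 and -0.64, -0.11 and 0.39 on laminitis replicates 1, 3 and 4. Their summed signal ran from 8667 to 30119 in laminitis and from 8952 to 31077 in normal tissue. Keratinocyte markers, 8 of 13 tested, had a median deviation of -0.35 on normal replicate 4 and a larger one, 0.47, on laminitis replicate 4. The list was mixed, since KRT10 read its highest value, 355, on normal replicate 4. The summed signal of the keratinocyte markers ran from 2111 to 3388 in laminitis and from 1687 to 2509 in normal tissue. Endothelial markers, 3 of 8 tested, summed to between 375 and 570.0 in laminitis and between 432 and 557 in normal tissue. Lymphocyte markers, 6 of 9 tested, summed to between 856 and 1130.1 in laminitis and between 1033 and 1203 in normal tissue. The part of tissue makeup in the values of the Toll-like receptor genes was not tested.

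The rest of the pathway was read through 7 lists of genes, each gene being represented by its brightest tested probe set. These lists named 117 distinct genes, of which 58 were tested, 28 with a positive and 30 with a negative log2 difference. None passed the limma test over all probe sets, as for 0% of the 6151 tested genes. The groups did not overlap for 7 genes higher and 9 lower in laminitis, where 8.7% and 8.36% of all tested genes did so. The median over the 58 was -0.030, beside -0.029 over all tested genes.

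Of the other Toll-like receptors only TLR9, a sensor of bacterial DNA, was tested. It read 115, 139 and 88.2 in laminitis and 75.5, 36.5 and 120.15 in normal tissue, with overlapping groups, and its log2 difference was 0.70 ± 0.44 (SE, limma adjusted p = 0.636). TLR6, a partner of TLR2, was too dim to test and read 48.1, 28.6 and 132 in laminitis and 102, 37.8 and 89.8 in normal tissue.

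Among endotoxin-binding and accessory proteins 6 of 15 were tested, 4 with a positive and 2 with a negative difference, and 0 passed. CD36, a scavenger receptor that serves as a co-receptor of TLR2, read 52.8, 64.1 and 26.2 in laminitis and 104, 116 and 114 in normal tissue. Every laminitis array was lower and below its array's median, so the normal group alone carried CD36 past the filter, and the log2 difference was -1.32 ± 0.34 (limma adjusted p = 0.345). HSP90B1, the chaperone that folds Toll-like receptors and many other secretory proteins, read 6275, 3774 and 1606 in laminitis and 895, 1120.2 and 1540 in normal tissue. Every laminitis array was higher, and the log2 difference was 1.54 ± 0.50 (limma adjusted p = 0.445). ITGB2, the beta chain of leukocyte integrins, had -0.38 ± 0.26 with overlapping groups.

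Of 19 adaptors, kinases and ubiquitin ligases of the proximal pathway 11 were tested, 4 positive and 7 negative, with a median of -0.12 and 0 past the test. BTK, a kinase of B and myeloid cells, read 138, 137 and 109 in laminitis and 188, 184 and 172 in normal tissue, with all laminitis values lower (log2 -0.51 ± 0.19, limma adjusted p = 0.490). TICAM2, the adaptor that links TLR4 to TICAM1, read 120.3, 199.6 and 216 in laminitis and 233, 269.6 and 228 in normal tissue, again without overlap (log2 -0.49 ± 0.27, limma adjusted p = 0.597). PELI1, a ubiquitin ligase acting on IRAK1, had 0.47 ± 0.33 with overlapping groups.

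Further down the pathway, 10 of 19 genes of the IKK, NF-kB and MAP kinase steps were tested, 3 positive and 7 negative, with a median of -0.21. MAPK14, the p38 MAP kinase, read 176, 93.5 and 157 in laminitis and 260.5, 236 and 183 in normal tissue. The groups did not overlap and the log2 difference was -0.71 ± 0.29 (limma adjusted p = 0.508). CHUK, an IKK subunit, had -0.41 ± 0.23 and RELA, an NF-kB subunit, had -0.27 ± 0.24, both with overlapping groups. In the interferon regulatory factor branch 5 of 11 genes were tested, with log2 differences from -0.19 for IRF7 to 0.20 for TANK and IRF5 at -0.12 ± 0.19, and all 5 had overlapping groups.

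Inhibitors of Toll-like receptor signalling, like the accessory proteins, held values far from 0 in both directions. Of 20 listed 11 were tested, 5 positive and 6 negative, with a median of -0.058, and 0 passed. TOLLIP, which binds IRAK1 and restrains it, read 119, 81.9 and 126 in laminitis and 226, 204 and 197 in normal tissue. Every laminitis array was lower, the ratio of geometric means was 0.513 and the log2 difference was -0.96 ± 0.23 (limma adjusted p = 0.322). PTPN6, a phosphatase of leukocytes, read 114, 128 and 128 in laminitis and 260.0, 179.8 and 209.9 in normal tissue (log2 -0.80 ± 0.21, limma adjusted p = 0.350). NFKBIA, the NF-kB inhibitor that NF-kB itself induces, read 951, 1068 and 901 in laminitis and 341, 281 and 408 in normal tissue, and its log2 difference was 1.52 ± 0.21 (limma adjusted p = 0.136).

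Transcripts that endotoxin is known to induce were listed to set beside the sensors. Of 27 listed 14 were tested, 9 positive and 5 negative, with a median of 0.29 and 0 past the test. The groups did not overlap for 4 higher and 2 lower, where 8.7% and 8.36% of all tested genes did so. The 2 lower ones, named after their values were seen, were IL1RN, the interleukin-1 receptor antagonist, at -1.92 ± 0.60 and the chemokine CCL3 at -0.58 ± 0.21. The other tested probe set of CCL3 lay at 0.094, opposite in sign. IL1RN exceeded the array median on all 3 normal arrays and on 1 laminitis array. CCL2, PTX3 and SAA3, a chemokine, a pattern-recognition protein and an acute-phase protein, had log2 differences of 1.55 ± 0.20, 4.85 ± 0.79 and 1.48 ± 0.39 (limma adjusted p = 0.131, 0.191 and 0.345), each with all laminitis arrays higher. PTX3 read 518, 464 and 198 in laminitis and 15.7, 3.77 and 33.6 in normal tissue, so the laminitis group alone carried it past the filter and its difference rests on dim normal values. The remaining higher gene, also named after its values were seen, was the cytokine IL1B. It read 233, 217 and 194 in laminitis and 159, 107 and 183 in normal tissue (log2 0.55 ± 0.25, limma adjusted p = 0.541). TNF and IL6, further classical endotoxin-induced cytokines, were too dim to test and are given here after their values were seen. TNF read 17.7, 16.04 and 21.1 in laminitis and 18.3, 98.3 and 18.8 in normal tissue, and IL6 read 30.6, 113 and 64.8 in laminitis and 20.02, 7.76 and 11.3 in normal tissue. The groups overlapped for TNF, and for IL6 all laminitis values were higher.

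**Figure D4:**
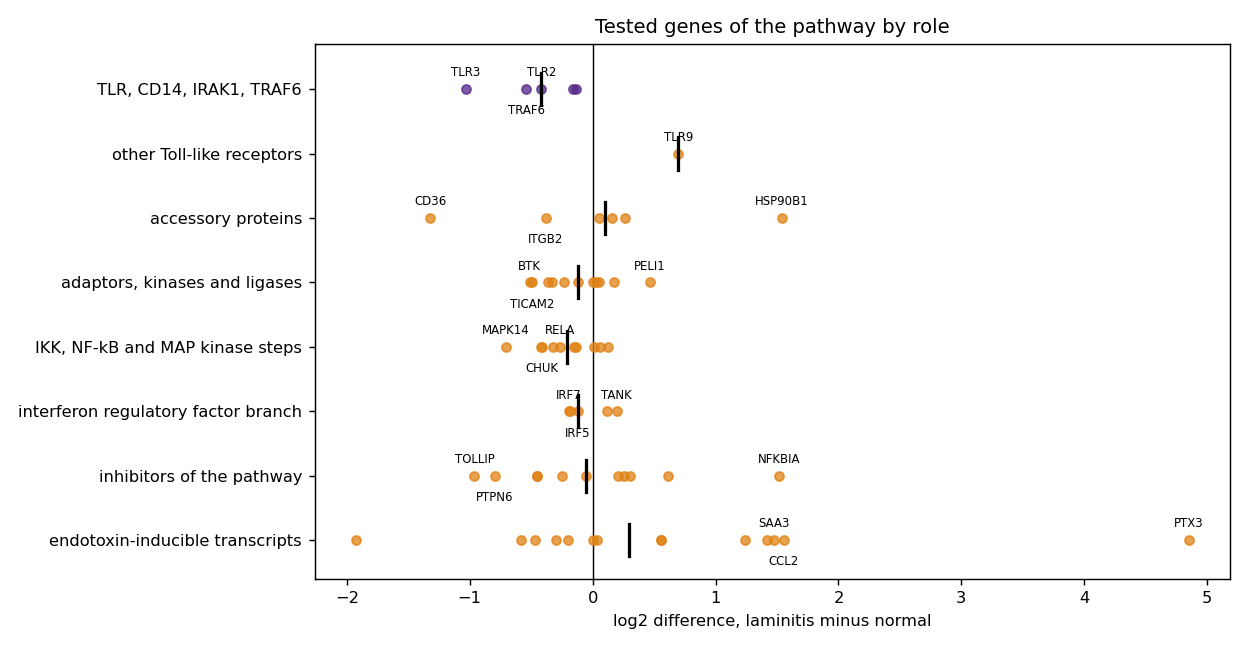
Log2 difference (laminitis minus normal) of each tested gene, a point each, by its role in the pathway, with the list's median as a vertical bar. The top row shows the tested genes among the 10 described here, and named points are the 3 of smallest p in each row. The 5 genes of the top row, each by its brightest probe set, lie between -1.03 and -0.13. The other tested TRAF6 probe set lies at 0.83 and is not drawn. All rows below, apart from the row that holds TLR9 alone, have points on both sides of 0.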

How the data were processed

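Per the labels' protocols, total RNA was made into biotin-labelled cRNA from an oligo(dT) primer in a single round of amplification and hybridised to bovine GeneChips. Samples were grouped by their titles. The deposited values are linear intensities that the authors had brought to a like level, since with the top and bottom 2% removed every array averaged between 150.02 and 150.03. The submitters' processing notes name GCRMA, whose output differs from such values, so the scaling step is open. Bovine probes that mismatch horse RNA read low, so signals of different genes are not ranked as transcript levels. Brightness chose the probe set per gene in lists, and ratios of a gene's probe sets are compared between groups only.

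Of 24128 probe sets 112 controls were left out. Gene symbols come from GEO's platform annotation, and all 10 symbols are also horse RefSeq symbols. Log2 signals with no offset were fitted in limma (3.58.1, R 4.3.3; lmFit, then eBayes), with two-sided p-values adjusted by Benjamini-Hochberg over 12519 tested probe sets, at a threshold of 0.05. Intervals cover 95%. The fit was tested on simulated data. The 3 arrays per group limit the precision. The genes and lists were chosen with earlier results of these data known. Named were all 10 genes, the 3 of smallest p in each pathway list and, of each marker list, the brightest gene and that of smallest p, not all printed for brevity. ELANE, MPO, TNF, IL6, IL1B, IL1RN and CCL3 were named after their values were seen. Alternatives were 10 other settings and each of the 6 arrays left out.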

Additional observations from a re-analysis of the deposited data

How the results depend on the processing

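Under all 16 alternatives run, 0 of the probe sets of the genes described here passed in limma or the ordinary linear model, and their median log2 difference stayed negative, from -0.37 to -0.15, the -0.15 being that of all 14 probe sets with no filter. Every setting but the filter on all 6 arrays takes in a probe set of IRAK1 that the normal group alone carried past the filter. Over all probe sets, 6 passed as higher in laminitis when only those above the array median on all 6 arrays were tested, 4 with an intensity trend and robust variance, and 0 to 2 with 1 array left out, the 2 without laminitis replicate 4. Counts of probe sets whose groups did not overlap were recomputed under settings chosen for this after seeing the data. The 2 lower ones became 1 of 5 with the filter on all 6 arrays (TRAF6), where 8.67% of all tested probe sets were so. They became 1 of 8 after quantile normalization or median centring (TLR3), where 8.22% and 6.21% of all were so. In these 2 settings 1 was higher (Bt.20349.2.S1_at of TRAF6), against 7.48% and 10.3% of all. With 1 array left out 2 to 3 were lower and 0 to 1 higher, where 13% to 17.5% and 11% to 14.4% of all tested probe sets were so. The cause was not tested. Leaving out 1 array turned the sign of tested Bt.5221.1.S1_at of IRAK1 (-0.44 to 0.075), Bt.4285.1.S1_at of CD14 (-0.31 to 0.024) and Bt.12298.1.S1_at of TLR3 (-0.22 to 0.11). Of the dim probe sets it turned Bt.5853.1.S1_at of TLR5 (-0.11 to 0.035) and Bt.13789.1.A1_at of CD14 (-0.06 to 0.46). TLR5 was also positive after quantile normalization (0.065) and median centring (0.051). With the replicate number as a block the median was -0.33 and the smallest adjusted p of these probe sets 0.635, at Bt.20349.2.S1_at of TRAF6, whose log2 difference was 1.30. MYD88 was at -0.10 and LBP at -0.11 with the block. Laminitis replicate 1 and normal replicate 2 share their number with no other array. The differences with the block therefore rest on replicates 3 and 4 alone, and their change from the main fit cannot be read as an effect of pairing. Numbers 3 and 4 are shared by both groups, the deviations of their samples correlated at -0.017 and -0.031, and nothing in the labels says that they pair samples. The filter on the array median, used with no detection calls, left 6 of 14 probe sets without a main test.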
